A study of Mus musculus with 18 samples.

Results

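Trim67, Slc18b1, Ppp2r5b, Mecr, Creb3l1 and Igsf1 are 6 of the 21899 gene IDs measured in inguinal white adipose tissue, the subcutaneous fat of the groin. They were picked by symbol for low values in the fat of mice with late-stage tumours, so their levels in those libraries and every difference that rests on them are given here as a description, without a test. The study followed cachexia, the wasting that accompanies some cancers, in C57BL/6J males injected subcutaneously either with LLC cells, which derive from the Lewis carcinoma of the mouse lung, or with PBS, a saline buffer. The groups were LLC at day 7 (pre-cachexia, 5 libraries), PBS at day 7 (4 libraries), LLC at day 21 (cachexia, 5 libraries) and PBS at day 21 (4 libraries), each numbered from 1 within its group. The labels number the libraries without naming separate animals, so the p-values rest on the spread between libraries, part of which may be technical.

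The products of these genes have no single pathway in common. Trim67 encodes a ubiquitin ligase of the tripartite motif family that binds the netrin receptor DCC and is best known from mouse neurons. Slc18b1 encodes the vesicular polyamine transporter, which loads spermine and spermidine into vesicles, and Ppp2r5b encodes a B56 regulatory subunit that directs protein phosphatase 2A (PP2A) to its substrates. Mecr encodes the mitochondrial enoyl reductase that completes fatty acid synthesis inside mitochondria, the route that supplies the precursor of lipoic acid, a cofactor of pyruvate dehydrogenase and related enzymes. Creb3l1 encodes OASIS, a transcription factor held in the membrane of the endoplasmic reticulum until proteases release it, and known in bone for driving collagen secretion. Igsf1 encodes an X-linked immunoglobulin superfamily glycoprotein of the cell surface, whose loss causes central hypothyroidism in humans.

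On GRCm38 the genes lie on different chromosomes. Trim67 (ENSMUSG00000036913) is on chromosome 8 from 124793092 to 124834713, Slc18b1 (ENSMUSG00000037455) on chromosome 10 from 23796986 to 23827968 and Ppp2r5b (ENSMUSG00000024777) on chromosome 19 from 6227765 to 6235872. Mecr (ENSMUSG00000028910) is on chromosome 4 from 131843470 to 131867786, Creb3l1 (ENSMUSG00000027230) on chromosome 2 from 91982328 to 92024502 and Igsf1 (ENSMUSG00000031111) on the X chromosome from 49782536 to 49797749. All 6 are protein-coding. GENCODE places the opposite-strand gene Gpha2 over 1 exon of Ppp2r5b, and Gpha2 had 0 or 1 counts per library. On the same strand, Gm16163 overlaps 1 exon of Trim67 and was not analysed here.

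The promoters of the genes that were lower in every day 21 LLC library than in every other library are shown because their transcripts share that pattern. Each window runs from 250 bases before the transcription start to 50 bases after it (RefSeq, GRCm38.p6, 5′ to 3′ on the gene's strand). The windows are chr8:124792769-124793068 (plus strand) for Trim67, chr10:23796736-23797035 (plus) for Slc18b1, chr19:6235791-6236090 (minus) for Ppp2r5b and chr4:131843221-131843520 (plus) for Mecr. Capitals mark the CREB and ATF half-site TGACG and the SP1 box GGGCGG on either strand.
Trim67: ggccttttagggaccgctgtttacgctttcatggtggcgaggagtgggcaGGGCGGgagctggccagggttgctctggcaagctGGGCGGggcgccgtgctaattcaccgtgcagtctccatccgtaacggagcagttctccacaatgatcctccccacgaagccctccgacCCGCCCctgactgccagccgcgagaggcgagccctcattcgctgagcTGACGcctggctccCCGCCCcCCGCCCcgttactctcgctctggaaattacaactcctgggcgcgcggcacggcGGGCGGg
Slc18b1: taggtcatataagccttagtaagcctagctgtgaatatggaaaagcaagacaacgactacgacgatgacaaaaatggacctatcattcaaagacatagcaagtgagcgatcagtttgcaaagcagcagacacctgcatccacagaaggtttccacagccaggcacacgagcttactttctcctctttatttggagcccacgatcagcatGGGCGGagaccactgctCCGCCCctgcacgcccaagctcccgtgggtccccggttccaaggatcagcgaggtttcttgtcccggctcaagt
Ppp2r5b: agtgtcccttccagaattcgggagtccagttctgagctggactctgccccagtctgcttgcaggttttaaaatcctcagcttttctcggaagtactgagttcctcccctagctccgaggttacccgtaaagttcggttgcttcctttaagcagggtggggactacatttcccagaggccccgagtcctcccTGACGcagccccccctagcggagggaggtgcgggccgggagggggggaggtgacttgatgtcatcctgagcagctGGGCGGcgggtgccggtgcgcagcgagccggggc
Mecr: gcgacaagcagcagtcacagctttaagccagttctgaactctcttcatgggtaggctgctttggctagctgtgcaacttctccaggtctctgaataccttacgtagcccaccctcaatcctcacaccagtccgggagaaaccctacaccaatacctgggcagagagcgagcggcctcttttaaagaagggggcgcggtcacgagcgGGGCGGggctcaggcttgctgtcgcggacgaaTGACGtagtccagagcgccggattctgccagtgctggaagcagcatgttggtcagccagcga

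Every one of these windows held a GGGCGG match, with 6 in Trim67, 2 in Slc18b1 and 1 each in Ppp2r5b and Mecr, and 35.66% of all 32851 promoter windows in the RefSeq table hold at least 1. TGACG occurred in Trim67, Ppp2r5b and Mecr (1 match each), against 20.81% of all windows, and the full palindrome TGACGTCA in none of them (1.79% of all windows). AGGTCA, the half-site bound by nuclear receptors such as PPARG, occurred in the Slc18b1 window and in 16.26% of all windows, and CCAAT in the Mecr window and in 37.41%. CACGTG (7.15% of windows) and the C/EBP site TTGCNNAA (10.8%) had no match in these windows. TGACG is contained in TGACGTCA. Of the 6 genes, 5 had a window in that table, including Igsf1, which does not share the pattern. The Igsf1 window at chrX:49788194-49788493 (minus) held 3 matches of GGGCGG, 3 of CCAAT and 1 of AGGTCA. That at chrX:49797696-49797995 held 1 of TGACG and 1 of TTGCNNAA, and that at chrX:49795315-49795614 held none. GC content was 67.0% for Trim67, 51.67% for Slc18b1, 61.67% for Ppp2r5b and 58.0% for Mecr, with a median of 52.67% over all windows.

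Levels are given in CPM, counts relative to each library's total after scaling over all 18 libraries, and in the deposited TPM, which also account for transcript length, where genes are compared with each other. Library totals ran from 14566155 to 18969387 counts, and all 23 markers of mature adipocytes were detected in every library. Day 21 PBS library 4 differed from libraries 1 to 3 of its group in markers of adipose progenitors and fibroblasts (score 0.43 against -1.40 to -1.06, where the score averages the markers' log2(CPM + 1) after each was centred on its 18-library mean) and of macrophages (0.85 against -2.50 to -1.84). Day 21 LLC library 1 had the lowest mature adipocyte score (-0.70), and day 21 LLC library 3 had a B cell and lymph node score of 6.07 against 0.34 or less in the other 17 libraries. Skeletal muscle scores ran from -2.44 to 5.11, with high and low libraries in all groups. Mast cell scores were 0.36 to 1.18 in day 21 LLC and -1.40 to -1.08 in day 21 PBS. Except where a value is given below, the part of these marker levels in the results was not tested.

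The label of lowest expression in cachectic fat comes from these same values, so the counts here describe the selection. It fitted 4 of the 6 genes in every day 21 LLC library. Trim67, Slc18b1, Ppp2r5b and Mecr were lower in each of the 5 day 21 LLC libraries than in any of the other 13, a position taken by 81 of 13975 genes (0.58%). Within day 21 alone, 4.47% of genes had all LLC libraries below all PBS libraries and 5.23% had them above, and 0.0221% passed as lower in edgeR. Creb3l1 and Igsf1 also had their lowest group mean in day 21 LLC, as did 24.6% of genes, but their day 21 LLC and PBS libraries overlapped and both were low at day 21 with and without a tumour.

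**Figure D1:**
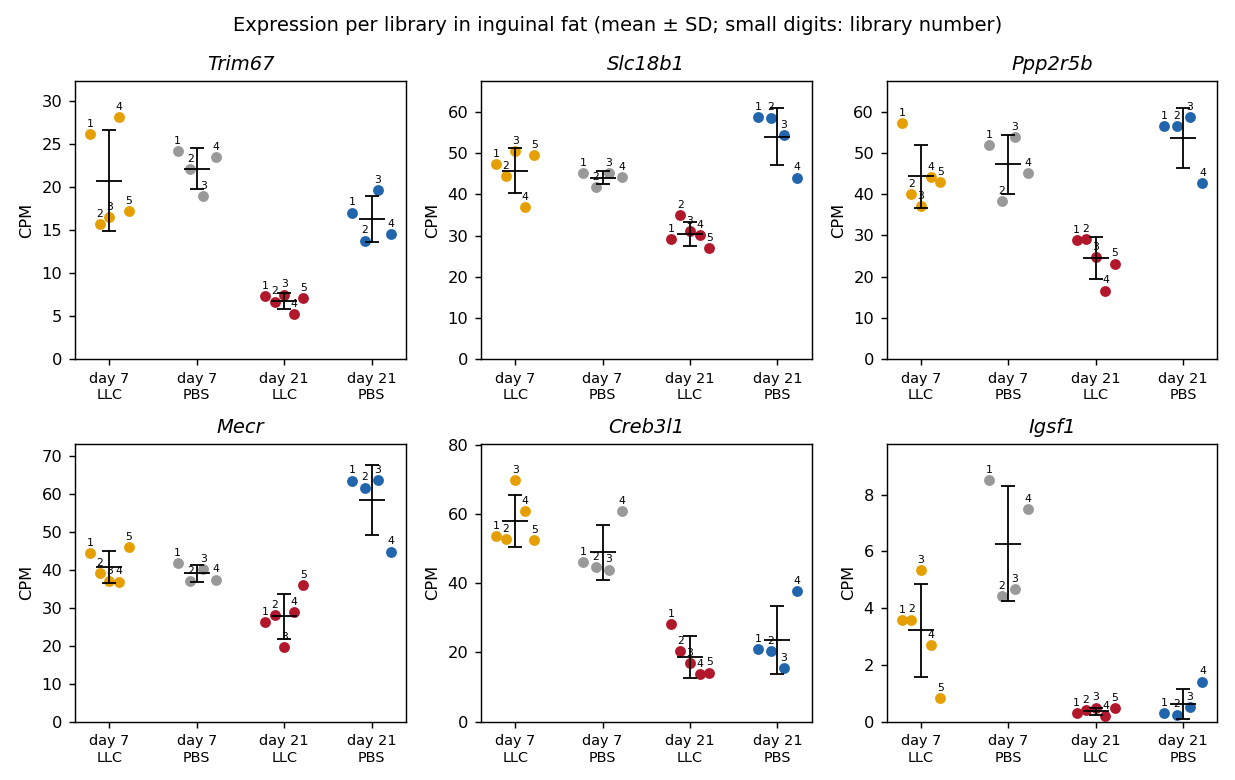
Expression of the 6 genes in CPM (vertical axes) in each of the 18 libraries, by group, with the mean and SD as black bars and the library number above each point. Trim67, Slc18b1, Ppp2r5b and Mecr are lowest in all 5 day 21 LLC libraries, while Creb3l1 and Igsf1 are low in both day 21 groups.

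Trim67 measured 7.27, 6.67, 7.49, 5.26 and 7.07 CPM in day 21 LLC libraries 1 to 5 and 17.05, 13.8, 19.7 and 14.5 CPM in day 21 PBS libraries 1 to 4. The means were 6.75 ± 0.89 CPM in LLC (SD, n = 5) and 16.3 ± 2.68 CPM in PBS (n = 4), a log2 fold change of -1.29 ± 0.17 (SE, within-day fit). All LLC libraries lay close together and well below the lowest PBS library. At day 7 the values were 26.2, 15.7, 16.5, 28.1 and 17.2 CPM in LLC and 24.2, 22.1, 18.9 and 23.4 CPM in PBS. LLC libraries 1 and 4 stood above the PBS libraries at day 7 and the other 3 LLC libraries below them, so the groups overlapped. Trim67 was the member with the lowest TPM after Igsf1, at 1.49 ± 0.46 TPM in day 21 LLC and 3.15 ± 0.50 TPM in day 21 PBS. Its close relative Trim9 was at 0.04 ± 0.08 CPM in day 21 LLC and 0.25 ± 0.45 CPM in day 21 PBS, too few counts to be tested.

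Slc18b1 measured 29.1, 34.9, 31.0, 30.1 and 27.0 CPM in day 21 LLC libraries 1 to 5, against 58.7, 58.7, 54.4 and 44.1 CPM in PBS libraries 1 to 4. The group means were 30.4 ± 2.92 CPM in LLC (SD, n = 5) and 54.0 ± 6.91 CPM in PBS (n = 4), and the log2 fold change was -0.85 ± 0.12. The PBS library nearest to the LLC group was library 4. Day 7 means were 45.8 ± 5.54 CPM in LLC and 44.0 ± 1.64 CPM in PBS, and the groups overlapped. The related vesicular monoamine transporter Slc18a2 measured 1.40 ± 0.50 TPM in day 21 LLC and 0.71 ± 0.22 TPM in day 21 PBS, where Slc18b1 had 22.4 ± 2.37 and 35.3 ± 4.94 TPM, and it did not pass (log2 0.81 ± 0.33, edgeR adjusted p = 0.186).

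Ppp2r5b measured 28.8, 29.0, 24.8, 16.6 and 23.1 CPM in day 21 LLC libraries 1 to 5, against 56.4, 56.5, 58.6 and 42.6 CPM in PBS libraries 1 to 4. The means were 24.5 ± 5.08 CPM in LLC (SD, n = 5) and 53.6 ± 7.34 CPM in PBS (n = 4), with a log2 fold change of -1.15 ± 0.18. LLC library 4 was the lowest and PBS library 4 the lowest control. The day 7 means were 44.3 ± 7.72 CPM in LLC and 47.2 ± 7.09 CPM in PBS, with overlapping groups.

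Mecr measured 26.3, 28.2, 19.6, 28.9 and 36.1 CPM in day 21 LLC libraries 1 to 5, against 63.6, 61.8, 63.8 and 44.9 CPM in PBS libraries 1 to 4. The means were 27.8 ± 5.91 CPM in LLC (SD, n = 5) and 58.5 ± 9.14 CPM in PBS (n = 4), with a log2 fold change of -1.09 ± 0.18. Of the 6 genes it had the highest TPM in every group, with 39.2 ± 8.54 TPM in day 21 LLC and 75.1 ± 11.5 TPM in day 21 PBS. Mecr averaged 40.7 ± 4.21 CPM in day 7 LLC and 39.2 ± 2.24 CPM in day 7 PBS, and these groups overlapped.

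Creb3l1 measured 28.2, 20.3, 16.9, 13.7 and 14.2 CPM in day 21 LLC libraries 1 to 5, against 21.0, 20.3, 15.4 and 37.7 CPM in PBS libraries 1 to 4. The groups overlapped almost entirely, and the highest value was that of PBS library 4. The log2 fold change was -0.36 ± 0.29, and it was -0.04 ± 0.25 without PBS library 4. At day 7 Creb3l1 measured 53.6, 52.7, 69.8, 60.8 and 52.5 CPM in LLC and 46.2, 44.6, 43.9 and 60.9 CPM in PBS. Every day 7 library lay above every day 21 library.

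Igsf1 had the lowest mean TPM of the 6 genes in every group. It measured 0.29, 0.41, 0.50, 0.19 and 0.47 CPM in day 21 LLC libraries 1 to 5 and 0.30, 0.25, 0.52 and 1.41 CPM in day 21 PBS libraries 1 to 4. These values rest on 3 to 10 counts per LLC library and 4 to 23 counts per PBS library, and the gene did not pass the filter on low counts at day 21, so no within-day fold change is given. At day 7 it measured 3.59, 3.60, 5.34, 2.70 and 0.84 CPM in LLC, against 8.51, 4.42, 4.68 and 7.48 CPM in PBS. LLC library 3 lay within the PBS range and the other LLC libraries below it, with library 5 the lowest, under the 1.41 CPM of day 21 PBS library 4.

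Between the days, the 6 genes took different courses in the controls. In PBS, Creb3l1 was lower in all day 21 libraries than in all day 7 libraries (23.6 ± 9.74 against 48.9 ± 8.04 CPM, SD, n = 4 each), as was Igsf1 (0.62 ± 0.54 against 6.28 ± 2.04 CPM). Such a position was taken by 8.38% of genes. The day 21 minus day 7 difference in PBS was -1.05 ± 0.25 for Creb3l1 and -3.32 ± 0.56 for Igsf1 on the log2 scale of 1 fit of all 18 libraries. Mecr went the other way, with every day 21 PBS library above every day 7 PBS library (log2 0.58 ± 0.15), as 7.92% of genes did. Trim67, at -0.45 ± 0.19, Slc18b1, at 0.29 ± 0.11, and Ppp2r5b, at 0.18 ± 0.17, overlapped between the days in PBS. On the TPM scale the day 21 PBS libraries of Trim67 were all below those of day 7 and Mecr overlapped. In LLC, all 6 genes were lower in every day 21 library than in every day 7 library, against 1.64% of genes, which describes their selection. The log2 differences there were -1.62 ± 0.17 for Trim67, -0.59 ± 0.10 for Slc18b1, -0.86 ± 0.16 for Ppp2r5b, -0.55 ± 0.14 for Mecr, -1.63 ± 0.23 for Creb3l1 and -3.09 ± 0.51 for Igsf1. The comparison of LLC with PBS at day 21 and those between the days share libraries and are not independent of each other.

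**Figure D2:**
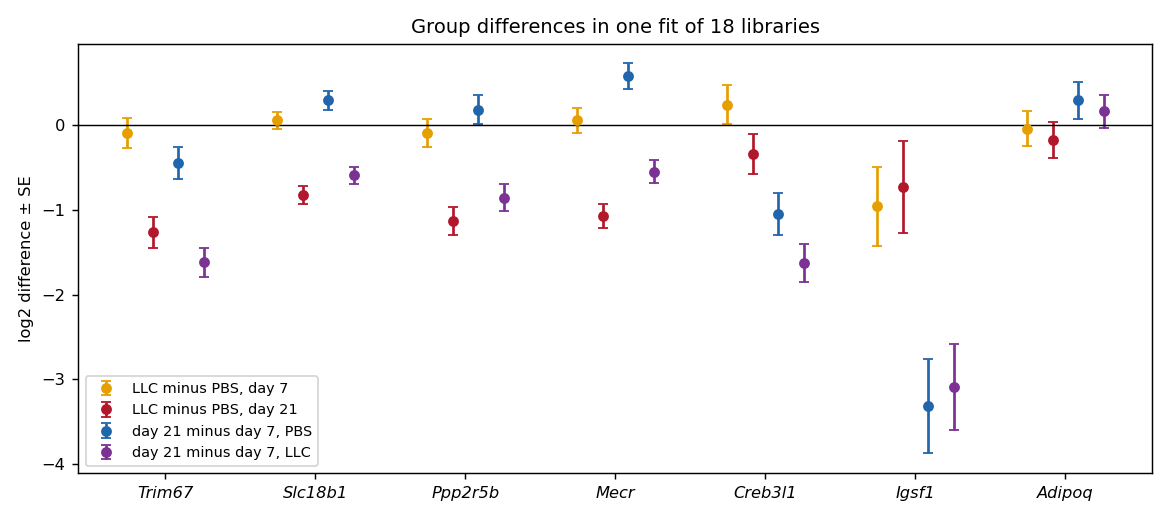
Log2 differences ± SE from 1 fit of all 18 libraries (vertical axis) for the 6 genes and Adipoq (horizontal axis), for LLC minus PBS at each day and day 21 minus day 7 within PBS and within LLC. Creb3l1 and Igsf1 show their largest differences between the days in both treatments, whereas Slc18b1, Ppp2r5b and Mecr are above 0 between the days in PBS and below 0 in LLC.

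LLC against PBS at day 7, a contrast that the choice of the genes did not use, could be tested, and it asks whether the genes already differed at the stage called pre-cachexia. None of the 6 passed in edgeR's quasi-likelihood test over 13445 genes, where 1 gene (0.00744%) did. Igsf1 had the largest difference, a log2 fold change of -0.95 ± 0.39 for LLC over PBS (adjusted p = 0.559). Its unadjusted p in edgeR was 0.0328, and 8.51% of genes had one under 0.05. Without single libraries its value ran from -1.21 (LLC library 3 left out) to -0.72 (LLC library 5 left out). With the progenitor markers as a covariate, added after the data were seen, it was -0.59 ± 0.27. Creb3l1 measured 0.25 ± 0.12 (adjusted p = 0.618), in the direction opposite to its day 21 value. Trim67 measured -0.09 ± 0.18 (adjusted p = 0.934), Slc18b1 0.06 ± 0.09 (0.907), Ppp2r5b -0.09 ± 0.13 (0.905) and Mecr 0.06 ± 0.08 (0.895). Of the 6, 3 had a log2 fold change below 0, against 48.9% of genes. LLC and PBS libraries overlapped for all 6, while 1.35% of genes had all LLC libraries below and 1.18% above the PBS libraries. With single libraries left out no member passed, and the lowest adjusted p in edgeR was 0.45, for Creb3l1 without PBS library 4 (log2 0.37 ± 0.10).

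Adipoq, which encodes the fat cell hormone adiponectin (ENSMUSG00000022878, chromosome 16, 23146536 to 23158028), is the adipocyte gene against which the 6 genes were read in each library. In bulk tissue, fewer cells of a type and less RNA per cell cannot be told apart. Adipoq measured 1205, 2380, 1862, 3229 and 2853 CPM in day 21 LLC libraries 1 to 5, against 2539, 2784, 2763 and 2328 CPM in day 21 PBS libraries 1 to 4. Library 1 had the lowest value of all 18 and library 4 the highest. Its log2 fold change did not pass (-0.20 ± 0.28, edgeR adjusted p = 0.686), nor did that at day 7 (-0.04 ± 0.10, adjusted p = 0.951).

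Per 1000 CPM of Adipoq, Trim67 measured 6.04, 2.80, 4.02, 1.63 and 2.48 in day 21 LLC libraries 1 to 5, against 6.71, 4.95, 7.13 and 6.23 in day 21 PBS. Slc18b1 measured 24.2, 14.7, 16.6, 9.31 and 9.47 in LLC, against 23.1, 21.1, 19.7 and 18.9 in PBS. Ppp2r5b measured 23.9, 12.2, 13.3, 5.14 and 8.11 in LLC, against 22.2, 20.3, 21.2 and 18.3 in PBS. For all of these the groups overlapped, and in each case LLC library 1, the library lowest in Adipoq, was the one that reached the PBS range or passed above it. Mecr showed the same, at 21.8 in LLC library 1, 8.96 to 12.6 in the other 4 LLC libraries and 19.3 to 25.1 in PBS. Relative to Adipoq the mean log2 difference between LLC and PBS at day 21 was -1.01 for Trim67, -0.57 for Slc18b1, -0.89 for Ppp2r5b and -0.83 for Mecr, against -0.06 for Creb3l1. At day 7 the same differences lay between -0.09 and 0.10 for Trim67, Slc18b1, Ppp2r5b and Mecr.

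**Figure D3:**
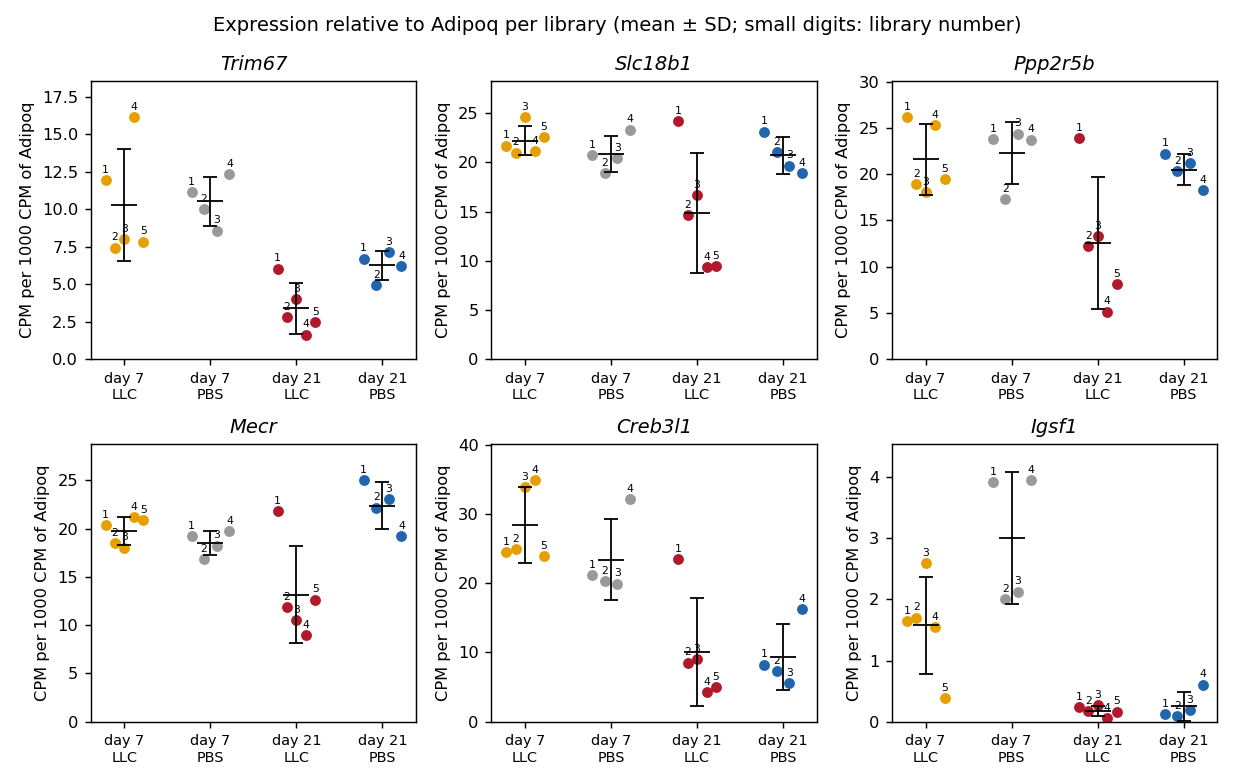
Expression of the 6 genes per 1000 CPM of Adipoq (vertical axes) in each library, by group, with mean and SD as black bars and library numbers above the points. In day 21 LLC, library 1 sits at the PBS level for Trim67, Slc18b1, Ppp2r5b and Mecr while the other 4 libraries sit below it.

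The mature adipocyte markers as a list had summed levels of 38590 to 88487 CPM in day 21 LLC and 64229 to 88503 CPM in day 21 PBS. Of the 23 markers 19 were lower in LLC, beside 48.1% of all genes, with a median log2 fold change of -0.46 against 0.02 over all genes. An unadjusted p under 0.05 in edgeR was reached by 11, all lower, beside 23.3% of all genes, and 0 passed. With the mean of that list as a covariate the day 21 log2 fold change was -1.30 ± 0.27 for Trim67 (-1.29 without it), -0.70 ± 0.18 for Slc18b1 (-0.85) and -1.14 ± 0.29 for Ppp2r5b (-1.15). It was -0.64 ± 0.19 for Mecr (-1.09 without the covariate) and -1.06 ± 0.29 for Creb3l1 (-0.36). The fit uses the day 21 values the genes were picked for and is a description. The part of adipocyte content in these differences was not tested.

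Within groups at day 7, the relation of each gene to Adipoq was tested as a slope beside the group in edgeR, over all genes. No gene passed (0 of 13445, 0%), and 10% had an unadjusted p under 0.05. The slopes, in log2 CPM of the gene per log2 CPM of Adipoq, were 0.81 ± 0.35 for Slc18b1 (adjusted p = 0.485) and 0.65 ± 0.34 for Mecr (adjusted p = 0.552). Creb3l1 had a slope of -1.06 ± 0.46 (adjusted p = 0.481), which was -2.33 ± 0.56 without LLC library 4 (0.465) and -0.58 ± 0.51 without PBS library 4 (0.931). Trim67 had a slope of -1.25 ± 0.72 (0.601), Ppp2r5b one of 0.33 ± 0.62 (0.898) and Igsf1 one of -0.90 ± 1.95 (0.916). The slope was above 0 for 3 of the 6 genes and for 51.4% of all genes. Adipoq itself varied little at day 7, with a within-group SD of 0.12 on the log2 scale against 0.40 at day 21. Over all 18 libraries with 4 group means, given as a description, the slope was -0.83 ± 0.21 for Creb3l1, 0.35 ± 0.16 for Mecr, 0.10 ± 0.13 for Slc18b1, -0.27 ± 0.20 for Ppp2r5b, -0.29 ± 0.22 for Trim67 and -0.48 ± 0.76 for Igsf1.

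Stromal markers varied between the libraries too. The 14 markers of adipose progenitors and fibroblasts summed to 3353 to 16369 CPM in day 21 LLC and 3153 to 18350 CPM in day 21 PBS. The sums were 7108 to 19144 CPM in day 7 LLC and 14782 to 22717 CPM in day 7 PBS, with no marker at 0. The list did not move as 1 set at day 21, where 8 markers were higher in LLC and 6 lower, with a median log2 fold change of 0.84. In edgeR 7 higher and 1 lower had an unadjusted p under 0.05, beside 23.3% of all genes, and 0 passed. The values ran from -1.24 for Col15a1 to 2.04 for Pi16. The day 21 libraries with the highest progenitor scores were PBS library 4 (0.43) and LLC library 1 (0.36), which were also the highest of their groups for Creb3l1. For Igsf1 the highest day 21 value was that of PBS library 4, and at day 7 the lowest was that of LLC library 5, the day 7 library with the lowest progenitor score (-0.25). Other libraries did not follow that order: day 21 LLC library 1, the highest of its group in score, had 0.29 CPM of Igsf1, below LLC libraries 2, 3 and 5. Creb3l1 in day 7 LLC library 5 was 52.5 CPM, above the 43.9 to 46.2 CPM of day 7 PBS libraries 1 to 3, whose progenitor scores were 0.56 to 0.70. With the progenitor list as a covariate, an alternative added after the data were seen, the day 21 value of Creb3l1 was -0.62 ± 0.13. That fit uses the day 21 values the gene was picked for and is a description. The part of stromal content in the levels of these genes was not tested.

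**Figure D4:**
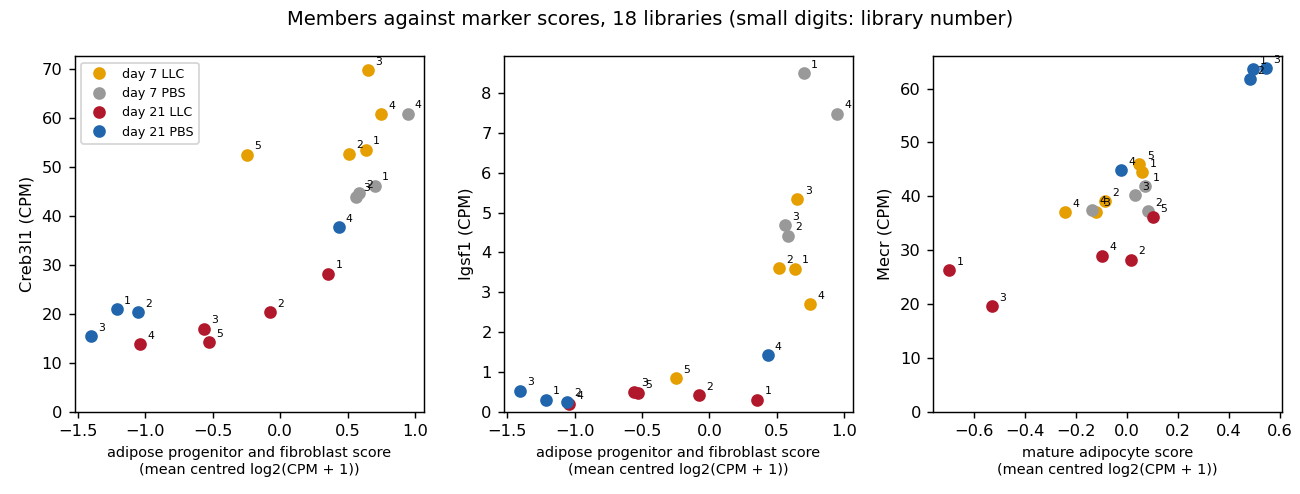
Creb3l1 and Igsf1 in CPM against the adipose progenitor and fibroblast score, and Mecr in CPM against the mature adipocyte score, in all 18 libraries coloured by group and numbered within it. Day 21 PBS libraries 1 to 3 lie at the low end of the progenitor score (-1.40 to -1.06) and library 4 at 0.43, near the day 7 libraries.

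The genes whose log2 CPM followed each member most closely over the 18 libraries, among 13045 candidates with a mean of at least 1 CPM, differed between the members. The correlations are descriptions that include the differences between groups, and the value within groups follows each one. For Creb3l1 they were the extracellular matrix genes Ecm2 (Pearson r = 0.94, within groups 0.78), Col4a5 (0.93 and 0.83), a collagen of basement membranes, and Col6a1 (0.93 and 0.86), collagen VI. For Igsf1 they were Abca8b, an ABC transporter (r = 0.96, within groups 0.84), Lamb2, a laminin of basement membranes (0.95 and 0.79), and Nid1, nidogen (0.93 and 0.72). For Ppp2r5b they were Paqr7, a membrane progestin receptor (r = 0.96, within groups 0.82), Scd2, a stearoyl-CoA desaturase (0.94 and 0.80), and Pnpla3, a lipid droplet protein (0.94 and 0.72). For Mecr they were the tetraspanin Cd151 (r = 0.96, within groups 0.88), Hsd17b4, the bifunctional enzyme of peroxisomal fatty acid oxidation (0.95 and 0.88), and Ttc7b (0.94 and 0.79). Slc18b1 was followed by Ankrd40 (r = 0.93, within groups 0.69) and the histone genes H2bc4 (0.91 and 0.39) and H2ac19 (0.90 and 0.48). Trim67 was followed by Mpdz, a scaffold of cell junctions (r = 0.91, within groups 0.56), Spag9, a scaffold of JNK signalling (0.88 and 0.64), and Ccser2 (0.87 and 0.71).

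The other genes of each member's pathway were examined as lists. At day 21, 12 of 13564 genes passed in edgeR (0.0885%), and no gene of the 6 pathway lists did at either day. Without day 21 PBS library 4, 1277 of 13726 genes passed (9.3%), among them between 1 and 3 genes of each list. At an unadjusted p under 0.05, which 23.3% of genes had at day 21 and 8.51% at day 7, the lists are given by their counts.

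Mitochondrial fatty acid synthesis and lipoylation had the median furthest from 0 of the 6 lists. The list is wider than its name, as it also holds Nfs1 and subunits of pyruvate dehydrogenase and other enzymes that use lipoic acid. Those subunits are Dlat, Dlst, Dbt, Dld, Pdhx, Pdha1, Pdhb, Gcsh, Bckdha, Bckdhb and Ogdh. Of the 23 listed genes other than Mecr, 22 were in the data. At day 21 all 22 tested genes other than Mecr had a log2 fold change below 0, against 48.1% of all genes, with a median of -0.46 and 9 of the 22 at an unadjusted p under 0.05. At day 7 17 of the 22 were above 0, with a median of 0.04 and 0 at that level. The day 21 direction was the same on the TPM scale (22 of 22 lower, median -0.34 and -0.35 for pseudocounts of 1 and 0.1) and without PBS library 4 (22 of 22, of which 3 passed, beside the 9.3% of all genes that passed there). It was 21 of 22 without PBS library 4 and LLC libraries 1 and 3 (median -0.31). With the mature adipocyte list as a covariate, however, 17 of the 22 were above 0, with a median of 0.23. These settings were added after the data were seen. Markers of brown and beige adipocytes, which are rich in mitochondria, summed to 85.7 to 436 CPM in day 21 LLC and 286 to 474 CPM in day 21 PBS. At day 21 all 10 tested had a log2 fold change below 0, with a median of -1.02, and 0 passed. At day 7 8 of the 10 were above 0, with a median of 0.93, and 1 passed, Ucp1. Their part in the values of the list was not tested. Oxsm, the ketoacyl synthase that extends the chain, measured 20.4 ± 4.21 CPM in LLC and 29.8 ± 3.90 CPM in PBS at day 21 (log2 -0.57 ± 0.17, edgeR adjusted p = 0.105). Acsf3, which supplies malonyl-CoA, measured 28.9 ± 8.67 CPM in LLC and 48.0 ± 9.35 CPM in PBS (-0.75 ± 0.23, adjusted p = 0.113). Gcsh, the lipoylated protein of glycine cleavage, had -0.45 ± 0.14 (adjusted p = 0.116) and Mcat, the malonyl transferase, -0.49 ± 0.18 (adjusted p = 0.148).

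Among PP2A genes, Ppp2r5b stood beside 1 of the other B56 subunits. Ppp2r5a measured 434 ± 146 CPM in day 21 LLC (SD, n = 5) and 1060 ± 221 CPM in day 21 PBS (n = 4), a log2 fold change of -1.31 ± 0.27 that did not pass (adjusted p = 0.0638). It was also the most abundant B56 subunit per transcript length, at 270 ± 102 TPM in day 21 LLC and 580 ± 89.5 TPM in day 21 PBS, where Ppp2r5b had 17.3 ± 6.12 and 33.0 ± 4.16 TPM. Ppp2r5d measured -0.27 ± 0.11 (adjusted p = 0.194), Ppp2r5c 0.13 ± 0.12 (0.52) and Ppp2r5e 0.10 ± 0.09 (0.531). Of the 24 tested genes other than Ppp2r5b, 16 were below 0 with a median of -0.04, but 16 were above 0 on the TPM scale (median 0.07, with 0.13 and 0.15 over all genes). In edgeR 3 reached an unadjusted p under 0.05, all lower. Outside the B56 family the smallest p values belonged to the methyltransferase of the catalytic subunit, Lcmt1 (-0.34 ± 0.13, adjusted p = 0.164), and the scaffold subunit Ppp2r1b (-0.35 ± 0.17, adjusted p = 0.234). At day 7 the list median was 0.01.

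**Figure D5:**
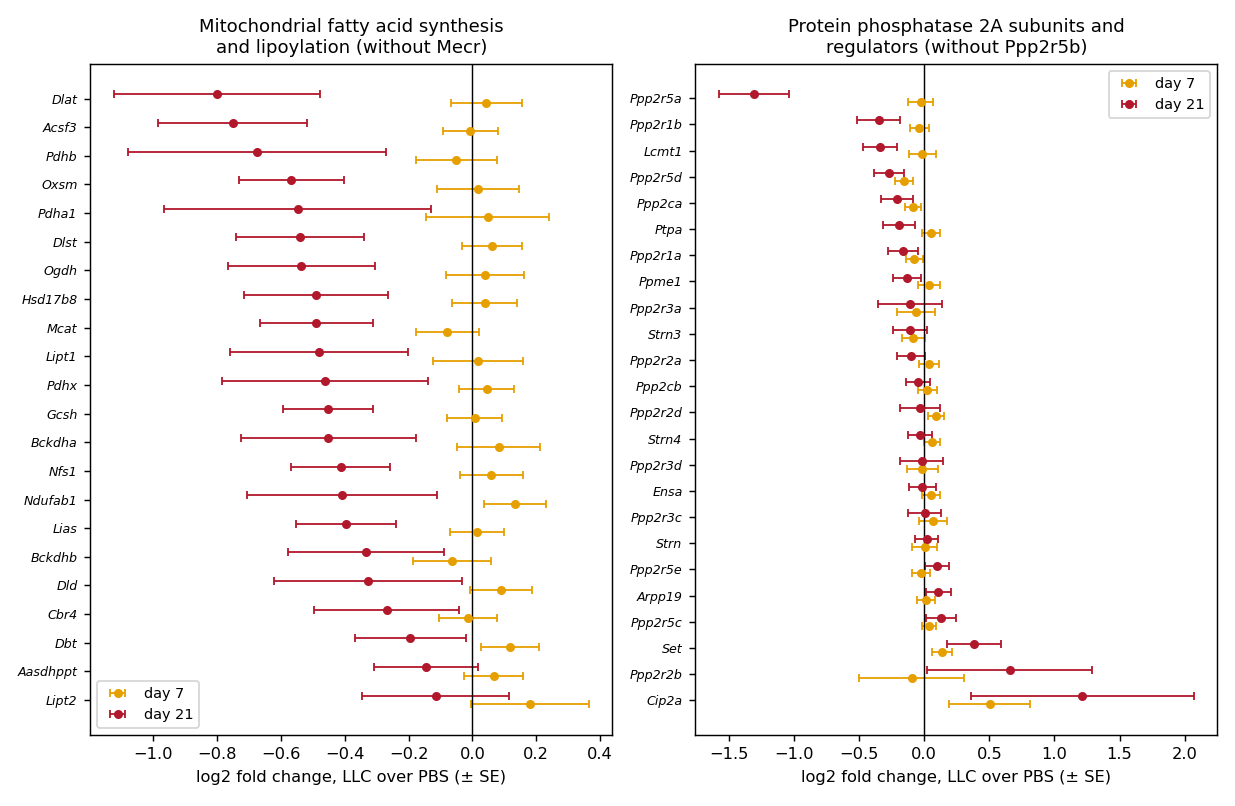
Log2 fold change of LLC over PBS ± SE (horizontal axes) at day 7 and day 21 for tested genes, with Mecr and Ppp2r5b left out. The lists are mitochondrial fatty acid synthesis and lipoylation, which includes subunits of enzymes that use lipoic acid, and PP2A. All 22 genes of the first list lie below 0 at day 21, and in the second Ppp2r5a at -1.31 lies apart from the rest.

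In the polyamine list, 10 of 18 genes were below 0 at day 21 with a median of -0.01 (6 of 18 on the TPM scale), and 3 lower and 2 higher genes reached an unadjusted p under 0.05. The antizymes, which restrain polyamine synthesis and uptake, measured -0.37 ± 0.10 for Oaz2 (adjusted p = 0.0943) and -0.35 ± 0.11 for Oaz1 (0.112). The antizyme inhibitor Azin2 measured -0.71 ± 0.25 (adjusted p = 0.142), and Amd1, which makes the aminopropyl donor, 0.50 ± 0.20 (adjusted p = 0.172). On day 7 a single gene of the list, lower, reached that level.

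In the list of TRIM relatives and netrin receptors, 7 of 14 genes were lower and 7 higher at day 21, with a median of 0.10 (-0.16 without PBS library 4, where 3 of 16 passed, beside 9.3% of all genes). The ligand Ntn1, netrin-1, measured 51.5 ± 8.46 CPM in day 21 LLC (SD, n = 5) and 18.3 ± 8.26 CPM in day 21 PBS (n = 4), a log2 fold change of 1.47 ± 0.27 (adjusted p = 0.0634). At day 7 it was 51.8 ± 14.4 CPM in LLC and 62.8 ± 7.57 CPM in PBS, so the day 21 PBS group was the low one. In 1 edgeR fit of all 18 libraries, the LLC minus PBS difference changed between the days past the threshold for 58 of 13975 genes (0.415%). Ntn1 was among them (adjusted p = 0.0415), but Ntn1 was named for its small p at day 21. The netrin receptor Unc5a measured -1.43 ± 0.37 at day 21 (adjusted p = 0.0829), the ligand Ntn4 1.51 ± 0.57 (0.16) and the receptor Neo1 -0.27 ± 0.13 (0.246).

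In the list around Creb3l1, 13 of 19 genes were above 0 at day 21 with a median of 0.07. With the mature adipocyte covariate 7 were above 0 and 12 below, with a median of -0.07. The ER stress sensor Ern1 measured 0.45 ± 0.11 (adjusted p = 0.0802), the stress factor Atf4 0.38 ± 0.17 (0.218) and the protease gene Mbtps2 0.23 ± 0.12 (0.289). Serpinh1, the collagen chaperone, measured -0.82 ± 0.40 (0.242). The closest relative, Creb3l2, measured 54.6 ± 8.50 CPM in day 21 LLC and 47.9 ± 8.70 CPM in day 21 PBS (log2 0.17 ± 0.16, adjusted p = 0.538). In the list of thyroid hormone action, 9 of 15 genes were below 0 with a median of -0.17, and 4 of them had an unadjusted p under 0.05. The median was 0.05 with the mature adipocyte covariate and also without PBS library 4 and LLC libraries 1 and 3. Slc16a10, a carrier of thyroid hormone and aromatic amino acids, measured -0.59 ± 0.14 (adjusted p = 0.0751), the corepressor Hr -1.30 ± 0.39 (0.109), the hormone-responsive lipogenic gene Thrsp -1.15 ± 0.46 (0.178) and the receptor Thrb -0.43 ± 0.17 (0.184).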

How the data were processed

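Poly(A)-selected RNA of mouse inguinal fat was sequenced from NEBNext Ultra libraries, per the labels' protocols. These mention no strand marking, so whether reads of overlapping genes on opposite strands were told apart is not known. The submitters' processing notes name fastp 0.23.0, RSEM without a version, and mm10 and GRCm38 as builds. For the aligner and annotation nothing is given in the sources used here. Deposited counts are whole numbers, taken as RSEM estimates rounded by the authors. The deposited TPM were scaled by the authors for length and library total. The deposited log2 ratio of mean TPM and the p-value and FDR columns of the authors' own comparison were not used. Tests on counts used edgeR 4.0.16 under R 4.3.3 (normalisation by TMM, filterByExpr at its minimum count of 10, quasi-likelihood test, two-sided, Benjamini-Hochberg adjustment over all tested genes at 0.05), separately at each day in 9 libraries. SEs were derived from each gene's F statistic (absolute log2 fold change over its square root). Of the 6 genes, 6 passed the filter at day 7 and 5 at day 21. DESeq2 1.42.0 and limma 3.58.1 on log2(TPM + 1) and log2(TPM + 0.1) were alternatives. Fits were tested on counts simulated with 1 spread shared by all genes and no outlying libraries. Those counts do not cover libraries that stand apart, such as those of day 21. The members and lists were chosen with earlier results of these data known. Named genes were the members, Adipoq, the 3 closest genes by Pearson r of log2 CPM (prior count 2), close relatives, and up to 4 genes of each pathway list with the smallest p at day 21. Gene positions are from GENCODE M21 and promoters from RefSeq. Libraries of 1 group differed by more than sampling noise (lowest chi-square per gene over 32 pairs, 15.8). The main fits did not pair libraries by the numbers in the titles, and a block for equal numbers was an alternative at each day. Deviations from the group means in libraries of equal number had r from 0.12 to 0.53 at day 7 and from -0.27 to 0.30 at day 21. Libraries of unequal number were not compared, so whether the numbers mark pairs was not tested.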

Additional observations from a re-analysis of the deposited data

Results flagged for a closer look

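Within single groups of 4 or 5 libraries, 28 sets of values (6 genes and Adipoq in 4 groups) were searched for a library far from the rest, where chance marks about 1 in 20, and 4 were found, all in a library numbered 4. Day 21 PBS library 4 was apart for Ppp2r5b, with 42.6 CPM against 56.4 to 58.6 CPM in PBS libraries 1 to 3, and for Mecr, with 44.9 CPM against 61.8 to 63.8 CPM. Its progenitor score was 0.43 against -1.40 to -1.06 in those libraries, and its mature adipocyte score -0.02 against 0.48 to 0.55. Without it, the day 21 log2 fold change was -1.25 ± 0.18 for Ppp2r5b and -1.20 ± 0.17 for Mecr. Day 7 PBS library 4 was apart for Creb3l1, with 60.9 CPM against 43.9 to 46.2 CPM, and for Adipoq, with 1895 CPM against 2177 to 2204 CPM. Its progenitor score was the highest of all libraries at 0.95. The part of these marker levels in the values was not tested.

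In 1 fit of all 18 libraries, LLC minus PBS for Ntn1 on the log2 scale was larger by 1.77 at day 21 than at day 7 (edgeR adjusted p = 0.0415). This difference between the days was passed by 0.415% of all genes. For LLC against PBS at day 21 that fit passed 2660 genes, against 12 in the within-day fit, where Ntn1 did not pass (edgeR adjusted p = 0.0634). Ntn1 measured 42.7 to 61.5 CPM in day 21 LLC and 11.1 to 30.2 CPM in day 21 PBS. At day 7 it measured 29.5 to 64.7 CPM in LLC and 52.0 to 69.1 CPM in PBS. Ntn1 was named for its small p at day 21, so the difference is not independent of that choice. Within day 21 PBS it was 11.1 to 16.0 CPM in libraries 1 to 3, whose progenitor scores were -1.40 to -1.06, and 30.2 CPM in library 4, whose score was 0.43. The part of stromal content in this difference was not tested.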

How the results depend on the processing

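For the 6 genes at day 7 no alternative brought one past the threshold (21 settings, lowest adjusted p = 0.363, for Igsf1). Directions near 0 turned for Slc18b1 with limma on log2(TPM + 1) (-0.0269) and log2(TPM + 0.1) (-0.0280), and with the progenitor covariate for Trim67 (0.0129) and Mecr (-0.00063). Slopes on Adipoq ran from -0.12 to 0.88 for Ppp2r5b, -1.92 to 0.0289 for Trim67, -0.0833 to 1.19 for Slc18b1 and -3.62 to 0.28 for Igsf1 when single libraries were left out, turning sign, and from -2.33 to -0.58 for Creb3l1. At day 21 the values, described only, stayed below 0 in all 22 settings: Trim67 -1.42 to -0.75 (-0.75 with limma on log2(TPM + 1)), Slc18b1 -0.93 to -0.63, Ppp2r5b -1.32 to -0.97, Mecr -1.20 to -0.64 and Creb3l1 -1.06 to -0.04. TPM scaling moved the median of all genes at day 21 to 0.13 and 0.15, against 0.02.

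Counts of genes past the threshold moved more. At day 7 (1 gene, higher) the count was 93 in DESeq2, 0 with limma on log2(TPM + 0.1), 0 in 1 fit of all 18 libraries and 0 to 3 without single libraries. With the replicate block, fitted on libraries 1 to 4 of each group, it was 1 and no call on the 6 genes changed. At day 21 (12 genes) it was 1555 in DESeq2, and 53 and 43 with limma on log2(TPM + 1) and log2(TPM + 0.1). It was 2660 in 1 fit of all 18 libraries, 103 with the muscle covariate and 2 with the replicate block, which assumes pairs that were not tested. Without single libraries it ran from 0 (PBS 1) to 1277 (PBS 4), and was 962 without PBS 4, LLC 1 and LLC 3 together, an alternative added after the data were seen. The slope count at day 7 (0) was 2 with the adipocyte list in place of Adipoq and 0 to 17 without single libraries (17 without LLC library 2). The cause was not tested. Igsf1, with 3 to 23 counts per library at day 21, is limited by depth.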

Other observations

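Over the 18 libraries the members did not vary as 1 group. The log2 CPM of Creb3l1 and Igsf1 had a Pearson r of 0.85 with each other (0.44 after group means were subtracted), and Slc18b1 had 0.86 with Ppp2r5b (0.34 within groups) and 0.84 with Mecr (0.27). Mecr and Creb3l1 had 0.09, and -0.55 within groups. Trim67 lay between, with 0.85 to Ppp2r5b (0.54 within groups), 0.73 to Igsf1 (0.17) and 0.73 to Creb3l1 (-0.02). These are descriptions over libraries that share groups, with no test. Against Adipoq the within-group r was 0.51 for Mecr and -0.71 for Creb3l1.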
